A study of Mus musculus with 4 samples.

Results

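The AP-1 and immediate early transcription factor genes measured here were Fos, Fosb, Fosl1, Fosl2, Jun, Junb, Jund, Atf3, Egr1 and Egr2. They were chosen by name, through the RefSeq accession of each array probe. All 10 genes were on the array, with 14 probes of 56605, and all 10 were among the 24067 genes tested. Of those 24067, 14499 had a gene symbol. The rest had none and were each counted as a gene under the array's own name for the probe. Every share over all genes tested below includes them, and a share over genes with a symbol alone is not given. Of the 14 probes, 13 were kept. The second probe of Fosb did not stand well above background on any array. The RNA came from primary cultured Kupffer cells (liver-resident macrophages), isolated from male C57BL/6 mice aged 8 weeks by collagenase perfusion and Percoll density centrifugation. One group of 2 arrays held cells given maresin 1 at 200 nM for 24 h, and the other group of 2 arrays held cells given the ethanol vehicle for 24 h, both in medium with 0.1% serum. Maresin 1 belongs to the pro-resolving lipid mediators of inflammation and derives from the omega-3 fatty acid docosahexaenoic acid. Separate cultures or mice behind the arrays of a group are not stated in the labels. The p-values therefore speak only to the spread among these arrays, and that spread may be technical.

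AP-1 is a dimer of basic leucine zipper proteins. FOS-type proteins pair with JUN-type proteins, and ATF3 pairs with JUN proteins or with itself. EGR proteins are zinc finger factors that are restrained by the corepressors NAB1 and NAB2. Many of these genes are immediate early genes, transcribed within minutes of a stimulus through MAP kinases and the serum response factor and silent again soon after, so a culture sampled after a day shows their sustained level and not the early burst. In mouse macrophages ATF3 is known as a brake on cytokine genes induced by Toll-like receptors, and Egr2 as a gene that interleukin 4 induces.

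All 4 arrays shared 1 slide, on which the vehicle and maresin 1 arrays occupied different positions, so group and position cannot be told apart. Between 54.4% and 55.6% of probes on each array were well above background, no spot was saturated, and the 75th percentile of processed signal was 946 and 847 on the maresin 1 arrays and 961 and 988 on the vehicle arrays. Levels below are log2 of the processed signal minus that percentile, so 0 is the level of the percentile itself. Levels of different genes come from different probes and are not compared, except where marker lists are summed or their most abundant gene is named. There, most abundant means the highest mean level of its probe, and both uses rest on probe brightness and not on transcript number. All 10 listed markers of Kupffer cells and macrophages were well above background on every array, among them Clec4f, Timd4 and Vsig4. Precision is limited by the small number of arrays.

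Egr2 and Atf3 showed the largest rises of the 10 genes, each to over 2-fold the vehicle level. Smaller rises, of about 1.3 to 1.4-fold, were called for Fosl2, Jun, Fosl1 and Junb. Fos, Jund, Egr1 and Fosb did not pass the test. In all, limma's moderated test at an adjusted p under 0.05 called 6 of the 10 genes higher with maresin 1 and 0 lower, where 11.2% of all genes tested were called higher and 12.7% lower. At an unadjusted p under 0.05, 7 of the 10 genes were higher and 0 lower, where 18.6% of all genes tested were higher and 22.1% lower. The median log2 difference was 0.41 over the 10 genes and -0.02 over all genes tested. Both maresin 1 arrays lay above both vehicle arrays for 8 of the 10 genes (32.8% of all genes tested) and below them for 1 gene, Fos (36.8% of all genes). A call with a difference of at least 2-fold was made for 2 of the 10 genes and for 2.24% of all genes tested. The count depended on the settings, as did that over all genes. Without the filter on dim probes, 3 of the 10 genes were called higher (2.38% of all genes tested), and 2 or 3 when 1 array was left out (3.58% to 4.92%). With Fosb added, 7 were called higher with median centring (14.5%), with the stricter filter (12.1%) and with a variance trend (18.8%).

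**Figure D1:**
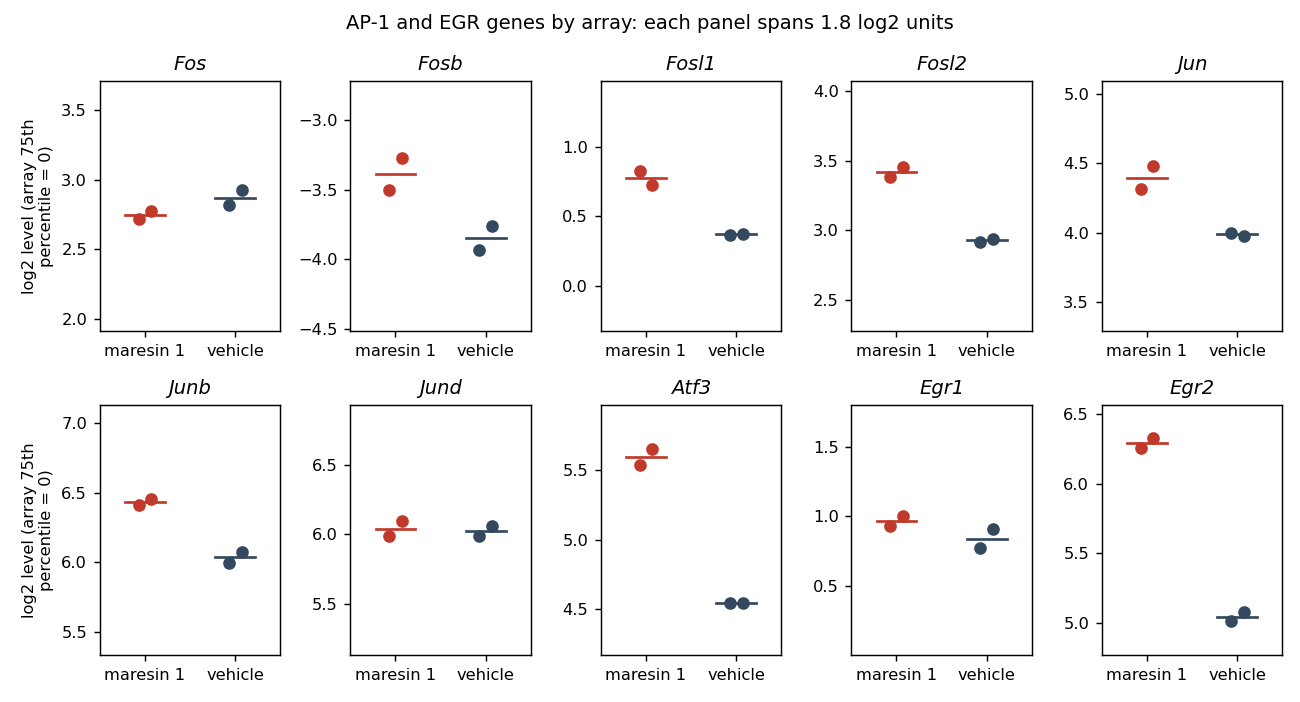
Level of each of the 10 genes on each array (points), with the group mean (line). The vertical axis is log2 of the processed signal relative to the 75th percentile of the array, and every panel spans the same range, so that distances can be compared while heights cannot. The maresin 1 points of Egr2 (6.26 and 6.33) and Atf3 (5.54 and 5.65) stand clear of their vehicle points, whereas those of Jund (5.99 and 6.10) overlap them.

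Within the FOS family, Fosl1 and Fosl2 rose, and Fos and Fosb did not pass. Fosl2 encodes FRA-2, a FOS-type protein without the strong activation domain of FOS itself. Its level was 3.39 and 3.46 on the maresin 1 arrays, against 2.92 and 2.94 on the vehicle arrays. The groups did not overlap, and the spread within each was small beside the gap. The difference was 0.49 ± 0.06 on the log2 scale (SE from limma, with 2 arrays in each group, here and for later differences), with an adjusted p of 0.0118. The second Fosl2 probe was dim, with processed signals of 149 and 157 in maresin 1 cells, against 86.7 and 80.6 in vehicle cells. It gave a larger rise of 0.99 ± 0.11 (adjusted p = 0.00933 over all probes), so the probes had the same direction and different sizes, and the mean of both gave 0.74.

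Fosl1, which encodes the related FRA-1, had levels of 0.82 and 0.72 in maresin 1 cells, against 0.37 and 0.37 in vehicle cells. The maresin 1 arrays were both higher, by 0.40 ± 0.06 (adjusted p = 0.0209). Fos, the founding member of the family, had levels of 2.72 and 2.78 in maresin 1 cells, against 2.82 and 2.92 in vehicle cells. Both maresin 1 arrays were therefore slightly the lower ones. The test was not passed at -0.12 ± 0.07 (adjusted p = 0.245), and its 95% interval reached from -0.31 to 0.06, which leaves out a rise of the size seen for Fosl1. Fosb, which encodes another strong activator, was dim, with processed signals of 83.6 and 87.6 in maresin 1 cells, against 62.8 and 72.9 in vehicle cells. Its difference of 0.46 ± 0.11 was of the size of the called ones but came with a larger error and narrowly missed the threshold (adjusted p = 0.0520). It was called in 6 of 14 alternatives, and was 0.20 with normexp and quantile normalization (adjusted p = 0.0900). The calls included those with quantile normalization (0.51, adjusted p = 0.0456) and the authors' value table (0.53, adjusted p = 0.0328).

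Within the JUN family, Jun and Junb rose, and Jund did not pass. Jun encodes the main transactivating partner of FOS proteins. Its level was 4.31 and 4.48 in maresin 1 cells, against 3.996 and 3.980 in vehicle cells. The maresin 1 arrays differed from each other by more than the vehicle arrays did, but neither approached them. The rise was 0.41 ± 0.08 (adjusted p = 0.0309). Junb, which encodes a partner known in macrophages for both inflammatory and alternative activation genes, had levels of 6.41 and 6.45 in maresin 1 cells, against 6.00 and 6.07 in vehicle cells. It rose by 0.40 ± 0.06 (adjusted p = 0.0196), and its second probe gave 0.43 ± 0.06. The Junb value depended on the scaling between arrays: it was 0.23 with quantile normalization (adjusted p = 0.0796) and 0.27 in the authors' value table (adjusted p = 0.0516).

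Jund, which encodes the JUN protein that most cells make without a stimulus, had levels of 5.99 and 6.10 in maresin 1 cells, against 5.99 and 6.06 in vehicle cells. Both vehicle arrays lay within the range of the maresin 1 arrays. The difference was 0.02 ± 0.07 (adjusted p = 0.874, 95% interval -0.17 to 0.21), and the second probe gave -0.01 ± 0.06. When a normexp background correction was combined with quantile normalization, Jund was called lower (-0.21, adjusted p = 0.0434).

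Atf3, which encodes a stress-induced repressor of the ATF family, rose 2.07-fold. Its processed signal was 43957 and 42653 on the maresin 1 arrays, against 22476 and 23086 on the vehicle arrays. Relative to the 75th percentile, the levels were 5.54 and 5.65 with maresin 1, against 4.55 and 4.55 with vehicle. The groups were far apart in comparison with their spread, and the difference was 1.05 ± 0.07 (adjusted p = 0.00366). In size it exceeded 96.8% of the differences, in either direction, of all genes tested.

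Egr2 rose more than any other of the 10 genes, 2.38-fold, while Egr1 did not pass. Egr2 encodes a zinc finger factor also known as KROX20. The Egr2 processed signal was 72240 and 68083 in maresin 1 cells, against 31014 and 33288 in vehicle cells. The levels were 6.26 and 6.33 with maresin 1, against 5.01 and 5.07 with vehicle, and they did not overlap on either scale. The difference was 1.25 ± 0.06 (adjusted p = 0.00280), larger in size than 97.9% of all genes tested. Egr1 encodes the founding member of the family, a classic serum-induced factor. Its level was 0.93 and 1.00 in maresin 1 cells, against 0.77 and 0.90 in vehicle cells. These levels did not overlap, but by a narrow gap, and the processed signals before scaling did, with 1796 and 1697 in maresin 1 cells, against 1641 and 1849 in vehicle cells. At 0.13 ± 0.08 the test was not passed (adjusted p = 0.278, 95% interval -0.08 to 0.33).

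**Figure D2:**
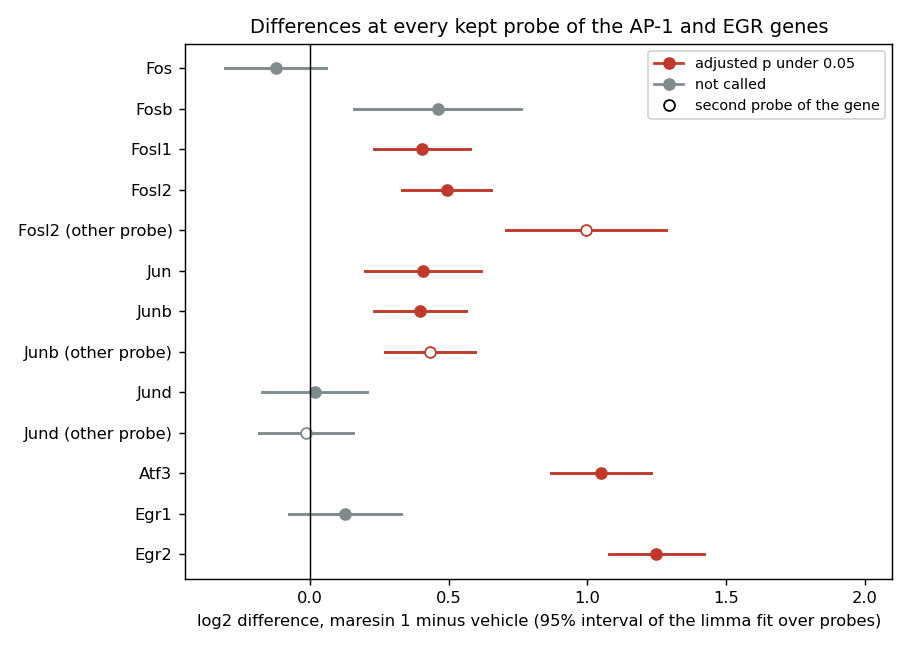
Difference between maresin 1 and vehicle at each of the 13 kept probes (log2, horizontal axis) with the 95% interval of the limma fit over all probes. Filled points are the probe that stands for the gene and open points its second probe. The values of Egr2 (1.25) and Atf3 (1.05) lie furthest to the right and those of Jund and Fos lie at or left of 0.

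Ratios of relatives were also taken within each array, where a constant scaling factor of the array cancels. A scaling that changes with signal, as in quantile normalization, does not cancel in them. The Fosl2 to Fos ratio, in log2 units relative to its vehicle mean, was 0.61 and 0.62 on the maresin 1 arrays, against 0.04 and -0.04 on the vehicle arrays. The Egr2 to Egr1 ratio was 1.13 and 1.12 with maresin 1, against 0.03 and -0.03 with vehicle. The Junb to Jund ratio was 0.41 and 0.35 with maresin 1, against 0.00 and 0.00 with vehicle. The 6 pairs examined, which also included Jun to Jund (0.39), Fosl1 to Fos (0.53) and Atf3 to Fos (1.17), were picked with the values known, so that a gap between the groups was built into the choice and the ratios are a description. An exact two-sided permutation test gave p = 0.333 for each, which is the smallest p that 2 arrays against 2 allow (adjusted p = 0.333 over the 6 pairs).

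Atf3 and Egr2 were called in all 14 alternatives, with differences between 0.88 and 1.11 for Atf3 and between 1.09 and 1.31 for Egr2. Leaving out any 1 of the 4 arrays ended the calls of Fosl1 (adjusted p 0.0656 to 0.106), Jun (0.0524 to 0.127) and Junb (0.0726 to 0.105). The call of Fosl2 held only without maresin 1 replicate 1 (0.0486) and ended when maresin 1 replicate 2, vehicle replicate 1 or vehicle replicate 2 was left out (0.0660 to 0.0751). Their differences moved little: from 0.35 to 0.46 for Fosl1, 0.33 to 0.49 for Jun, 0.36 to 0.43 for Junb and 0.46 to 0.53 for Fosl2. With no filter on dim probes the calls of Fosl1 (0.0594), Jun (0.0594) and Junb (0.0590) also ended, and that of Fosl2 held (0.0444). For the 13 kept probes of these genes the scanner software gave each spot an error of 10% to 12.6% of its signal, and the median error was 0.14 on the log2 scale. Each of these probes had 1 spot per array.

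**Figure D3:**
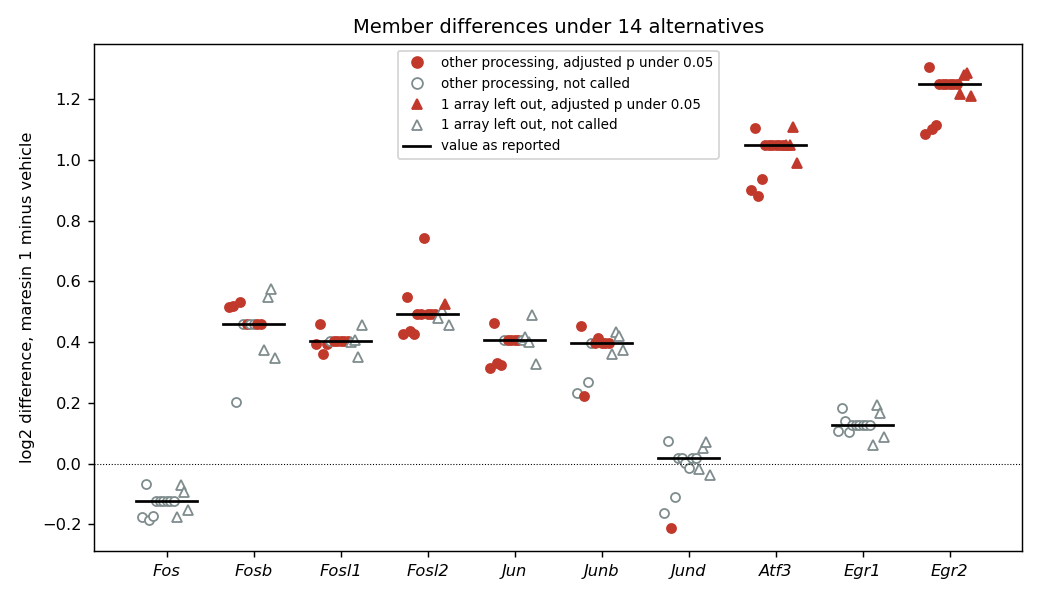
Difference between maresin 1 and vehicle (log2, vertical axis) for each gene under 14 alternatives: other processing (circles) and 1 array left out (triangles). Red symbols passed at an adjusted p under 0.05, open grey ones did not, and the black line is the value as reported. All symbols of Atf3 and Egr2 are red, while the triangles of Fosl1, Jun and Junb are open.

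To place Atf3 and Egr2, the members with the largest rises, beside relatives that rose less or did not pass, the bases around their transcription start sites are shown. RefSeq sequences of GRCm38.p6, from 250 bases before to 50 bases after a start, were found for 8 of the 10 genes, all except Fosl1 and Egr1. The windows were searched on both strands for an AP-1 site (TGAGTCA), a CRE (TGACGTCA), an EGR site (GCGNGGGCG), a CArG box (the serum response factor motif), a STAT6-type site (TTC and GAA with any 4 bases between them) and a C/EBP-ATF composite site (TGATGCAA). Capitals mark a match, and no window held more than 1. The Atf3 window is chr1:191183284-191183583, minus strand. Of 5 Egr2 windows, the most upstream (chr10:67535249-67535548, plus strand) and the third, from a start further downstream (chr10:67537619-67537918, plus strand), are given. The Fosl2 window is chr5:32136222-32136521, plus strand, and the Fos window is chr12:85473640-85473939, plus strand.
Atf3: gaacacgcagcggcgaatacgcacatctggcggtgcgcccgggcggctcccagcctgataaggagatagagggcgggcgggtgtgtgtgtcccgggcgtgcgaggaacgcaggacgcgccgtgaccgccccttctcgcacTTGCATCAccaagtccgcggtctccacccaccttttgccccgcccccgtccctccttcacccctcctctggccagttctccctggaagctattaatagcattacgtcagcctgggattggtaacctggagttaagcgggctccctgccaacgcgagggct
Egr2 upstream start: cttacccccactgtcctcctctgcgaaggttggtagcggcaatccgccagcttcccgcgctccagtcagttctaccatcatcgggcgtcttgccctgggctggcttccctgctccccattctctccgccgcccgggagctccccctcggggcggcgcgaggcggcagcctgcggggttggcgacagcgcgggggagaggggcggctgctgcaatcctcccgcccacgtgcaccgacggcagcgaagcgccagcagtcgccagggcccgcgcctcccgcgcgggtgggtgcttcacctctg
Egr2 downstream start: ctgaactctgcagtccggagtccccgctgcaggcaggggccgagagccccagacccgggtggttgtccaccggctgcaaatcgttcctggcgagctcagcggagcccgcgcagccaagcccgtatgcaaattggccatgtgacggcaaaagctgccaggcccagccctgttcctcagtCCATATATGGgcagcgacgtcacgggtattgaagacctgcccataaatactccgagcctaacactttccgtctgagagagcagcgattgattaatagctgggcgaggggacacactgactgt
Fosl2: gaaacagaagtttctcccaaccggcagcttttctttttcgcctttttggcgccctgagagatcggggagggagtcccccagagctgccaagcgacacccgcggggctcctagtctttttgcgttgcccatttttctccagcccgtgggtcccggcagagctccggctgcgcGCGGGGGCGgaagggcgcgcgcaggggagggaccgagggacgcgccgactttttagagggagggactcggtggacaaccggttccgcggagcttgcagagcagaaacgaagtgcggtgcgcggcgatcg
Fos: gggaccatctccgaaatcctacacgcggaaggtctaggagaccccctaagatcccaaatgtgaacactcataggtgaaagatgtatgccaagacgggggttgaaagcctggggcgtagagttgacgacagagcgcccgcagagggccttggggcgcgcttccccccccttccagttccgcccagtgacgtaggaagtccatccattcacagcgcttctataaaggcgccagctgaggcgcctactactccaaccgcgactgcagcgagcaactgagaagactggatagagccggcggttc

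The Atf3 window held the C/EBP-ATF composite site, from base -110 to -103 relative to the start, which is present in 0.895% of all 32851 windows of the same length. The upstream Egr2 window had no match, while the other 4 Egr2 windows, of which 3 overlap, held a CArG box (1.63% of all windows). In the downstream window shown it spans bases -72 to -63. The Fosl2 and Fosb windows held an EGR site (5.55% of all windows), from base -79 to -71 and from -50 to -42. The Fos, Jun, Junb and Jund windows had no match. AP-1 sites (5.2% of all windows), CREs (1.79%) and STAT6-type sites (6.95%) were found in 0 of the 12 windows of these genes. A match is a run of letters and not a shown binding site, and letters missing from this window may stand elsewhere. Only the exact letters given were searched. Variants of a motif within these windows were therefore not marked, and a window without a match may still hold one.

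Other basic leucine zipper genes of the AP-1, ATF and CREB group went both ways. Of 23 measured genes on this list, 6 rose, 2 fell and 15 did not pass, with a median log2 difference of 0.04. The shares over all genes tested were 11.2% higher and 12.7% lower. Batf3, which encodes a JUN partner needed by cross-presenting dendritic cells, rose most, by 1.89 ± 0.06 (adjusted p = 0.00150). Jdp2, whose product is a repressive dimer partner of JUN, rose by 0.93 ± 0.06 (adjusted p = 0.00380). The small MAF gene Maff rose by 0.87 ± 0.07 and Bach1, a repressor of haem-responsive genes, by 0.71 ± 0.10. Batf (-0.38 ± 0.06) and Bach2 (-0.37 ± 0.07), named after their values were seen, fell. Atf4 (0.08 ± 0.06, adjusted p = 0.376) and Ddit3 (0.02 ± 0.06, adjusted p = 0.810), factors of the integrated stress response that are known to act upstream and downstream of Atf3, did not pass. The sign of that median turned with the scaling: it was -0.04 with quantile normalization, -0.02 with normexp and -0.03 in the authors' table. Batf3, Jdp2 and Maff stayed called in each of the 4 fits that left out an array, whereas Bach1 lost its call in 3 of these cases (highest adjusted p 0.0792). With 1 array left out, 3 or 4 genes of the list were called higher and 0 lower.

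Among EGR relatives and corepressors, 1 of 5 measured genes passed, where 24% of all genes tested passed in either direction. Nab2, which encodes a corepressor that EGR factors themselves induce, fell by 0.42 on the log2 scale, with levels of 2.576 ± 0.017 in maresin 1 cells and 2.997 ± 0.006 in vehicle cells (SD, n = 2). Its call (adjusted p = 0.0137) was lost without any 1 of the 4 arrays (0.0602 to 0.0821). Egr3 was dim and did not pass (-0.18 ± 0.15, adjusted p = 0.429), nor did Sp1 (0.07 ± 0.06) and Sp3 (-0.21 ± 0.06), zinc finger genes whose products bind similar GC-rich sites.

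Of 30 other immediate early genes, 12 rose, 3 fell and 15 did not pass, with a median of 0.17. Beside these counts, 11.2% of all genes tested rose and 12.7% fell. The median of the list was 0.09 with quantile normalization, 0.07 with normexp, 0.11 in the authors' table and 0.23 with median centring. The number that rose was 6 with no filter on dim probes (2.38% of all genes tested) and 17 with a variance trend (18.8%). Csrnp1, a nuclear factor gene induced by AXIN1, rose by 1.51 ± 0.05 (adjusted p = 0.00165). Its level was 4.761 ± 0.002 in maresin 1 cells and 3.246 ± 0.005 in vehicle cells (SD, n = 2). The zinc finger gene Klf4 rose by 1.20 ± 0.10 and the matricellular gene Ccn1 by 1.07 ± 0.06. Gadd45b, which encodes a stress sensor that acts on MAP kinase kinases, rose by 0.78 ± 0.06. These 4 genes kept their calls without any 1 array. Nr4a1, an orphan nuclear receptor gene that is a standard immediate early marker, did not pass at 0.06 ± 0.06 (adjusted p = 0.471). The genes that fell, named after their values were seen, were Ccn2 (-0.85 ± 0.08), Nfkbiz (-0.37 ± 0.07) and Klf2 (-0.24 ± 0.06). With 1 array left out, 5 to 8 genes were called higher and 0 or 1 lower.

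In the signalling layer above AP-1, of 26 MAP kinase and serum response factor genes, 9 fell, 1 rose and 16 did not pass, with a median of -0.11. Over all genes tested, 12.7% fell and 11.2% rose. The number that fell was 6 with median centring (9.84% of all genes tested), 4 with no filter on dim probes (2.13%) and 4 with the replicate block (8%). It was also 6 when each gene was counted by its probe with the largest p. With quantile normalization (12.6%), the authors' table (13.3%) or a variance trend (19.4%) it was 10, and with normexp 11 (18%). Map3k5, which encodes the stress kinase ASK1, fell by 1.26 on the log2 scale (SE 0.05, adjusted p = 0.00228), and its second probe gave -1.35. Elk3, a ternary complex factor that binds beside the serum response factor, fell by 0.81 (SE 0.05, adjusted p = 0.00411). Srf itself fell (-0.26 ± 0.06, adjusted p = 0.0386), but leaving out any array ended the call (highest adjusted p 0.173). Srf was also not called with median centring or without the filter on dim probes. The gene that rose was Map2k4, a kinase that activates JNK (0.59 ± 0.06). Its call was lost without vehicle replicate 1 or maresin 1 replicate 2 (up to 0.0524). The list was sensitive to 1 array, with 2 or 3 genes called lower and 0 or 1 higher when any array was left out.

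Of 18 MAP kinase phosphatase and feedback inhibitor genes, 3 rose, 1 fell and 14 did not pass, with a median of 0.09. Across all genes tested, 11.2% rose and 12.7% fell, so these few calls do not set the list apart. Dusp1, the phosphatase gene that is itself an immediate early gene, did not pass at 0.10 ± 0.07 (adjusted p = 0.358). Dusp10 (0.51 ± 0.11), Spred1 (0.39 ± 0.09) and Dusp8 (0.32 ± 0.07) rose and Dusp7 (-0.26 ± 0.06) fell, with adjusted p between 0.0394 and 0.0469. The second probe of Dusp8 did not pass (0.20, adjusted p = 0.117). Without 1 array, at most 1 gene of the list kept a call: Dusp10 without maresin 1 replicate 1 (0.0472).

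Genes known as AP-1 targets moved in both directions. Of 20 measured genes, 9 rose, 4 fell and 7 did not pass, with a median of 0.27. Across all genes tested, 11.2% rose and 12.7% fell. Mmp13, the collagenase 3 gene with a well known AP-1 site, rose by 2.42 ± 0.13, with a mean level of 3.38 in maresin 1 cells and 0.96 in vehicle cells. The integrin gene Itgax rose by 2.39 ± 0.08, the cyclooxygenase 2 gene Ptgs2 by 1.28 ± 0.07 and the cyclin D1 gene Ccnd1 by 0.96 ± 0.07, and these 4 genes kept their calls without any 1 array. The 4 genes that fell, named after their values were seen, were Il1b (-0.56 ± 0.05), Hmox1 (-0.44 ± 0.06), Tnf (-0.43 ± 0.06) and Mmp14 (-0.37 ± 0.06). With 1 array left out, 6 or 7 were called higher and 0 or 1 lower. Itgax is also an integrin gene of dendritic cells.

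**Figure D4:**
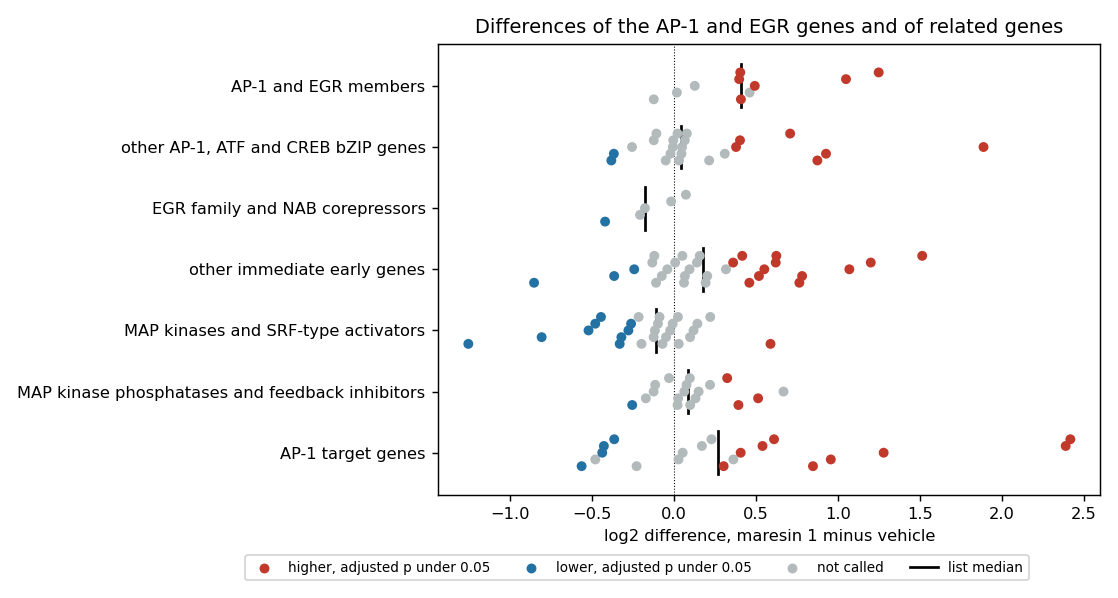
Difference between maresin 1 and vehicle (log2, horizontal axis) for each gene of the 10 and of 6 related lists, with the list median as a black bar. Red points rose, blue points fell and grey points did not pass. Batf3 (1.89), Csrnp1 (1.51), Mmp13 (2.42) and Itgax (2.39) lie furthest to the right of their lists, and most coloured points of the MAP kinase list lie left of 0.

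Markers of other cells and of stress moved with treatment in the same arrays. In RNA from a whole culture, fewer cells of a type and less RNA per cell cannot be told apart. For all marker counts here and below, the shares over all genes tested were 11.2% higher and 12.7% lower. Of 11 heat shock genes, which handling and stress of cells induce, 6 rose and 0 fell, and 2 or 3 were called when 1 array was left out. Their summed level, in multiples of the 75th percentile, was 582 to 600.2 on the maresin 1 arrays and 478 to 480.1 on the vehicle arrays. The most abundant of them, Hsp90ab1, did not pass (0.24 ± 0.06, adjusted p = 0.0534). Of 10 sinusoidal endothelial markers, 5 rose (Dnase1l3, Pecam1, Stab2, Fcgr2b and Cdh5, named after their values were seen apart from Stab2) and 0 fell, and 2 were called when any 1 array was left out. The differences of 4 endothelial markers were negative without a call, and the list median was 0.27. Kdr (-0.32), Clec4g (-0.18) and Lyve1 (-0.16), named after their values were seen, were the lowest. Over the 9 endothelial markers with a value on every array, the summed level was 97.4 to 98.5 with maresin 1 and 77.3 to 81.5 with vehicle. Kdr, which carried an outlier mark on vehicle replicate 1, was left out of this sum. The most abundant, Stab2, rose by 0.47 ± 0.07, a call lost without any 1 array (highest adjusted p 0.0988). Of 9 measured dendritic cell markers, 4 rose (Clec9a, Cd209a, Zbtb46 and Ccr7, named after their values were seen) and 0 fell, and 1 or 2 were called when 1 array was left out. Flt3 (-0.28), Siglech (-0.28) and Itgae (-0.14), also named after their values were seen, had negative differences that did not pass. The median of the dendritic cell list was 0.07, and its sum was 175 to 178 with maresin 1 and 166 to 172 with vehicle. Xcr1 did not stand well above background on any array, and the most abundant, Bst2, did not pass (0.07 ± 0.06). The part of these cells and of stress in the rises of Atf3, Egr2, Batf3 and the other genes was not tested.

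Lymphocyte markers also changed. Among 7 measured B cell markers of 10 listed, 3 rose and 0 fell. Those that rose included Ms4a1 (1.21 ± 0.09) and Cd79b (0.74 ± 0.08), named after their values were seen. Pax5, also named in this way, was lower on both maresin 1 arrays but did not pass (-0.42 ± 0.16, adjusted p = 0.137). When 1 array was left out, 1 or 2 markers of the list were called. The sum over the list was 9.40 to 9.83 with maresin 1 and 7.29 to 7.51 with vehicle, while the most abundant, Cd22, did not pass (0.15 ± 0.06). Of 10 T and NK cell markers 2 rose and 5 fell, and none of those that fell was called when any 1 array was left out. Gzma, a granzyme gene and the brightest of the list, rose by 1.37 ± 0.09. The sum, to which Gzma contributed most, was 60.6 to 67.3 with maresin 1 and 37.6 to 39.0 with vehicle. It does not stand for the list, whose median difference was -0.28. For 8 of the 10 markers both maresin 1 arrays lay below both vehicle arrays (36.8% of all genes tested). Cd8a also rose, and Lck, Cd2, Nkg7, Cd3g and Ncr1 fell, all named after their values were seen.

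Of 9 measured hepatocyte markers 1 fell (Ttr), with a sum of 30.2 to 31.6 with maresin 1 and 33.9 to 36.2 with vehicle, and Cps1 was not well above background. Of 8 measured stellate cell markers 2 fell (Reln and Dcn), with a sum of 38.0 to 39.0 with maresin 1 and 40.9 to 41.0 with vehicle, and Lrat and Des were not well above background. The most abundant genes of these lists, Trf (-0.11 ± 0.06) and Acta2 (-0.06 ± 0.06), did not pass. Of 8 measured neutrophil and monocyte markers 1 fell (Ccr2), with a sum of 152 to 165 with maresin 1 and 165 to 166 with vehicle, and the most abundant, Ly6c2, did not pass (-0.04 ± 0.07). Of the 10 Kupffer cell and macrophage markers 1 rose (Csf1r) and 1 fell (Adgre1), with a sum of 1110 to 1130 with maresin 1 and 1154 to 1198 with vehicle. The number that rose was 0 with quantile normalization, normexp, the authors' table, no filter on dim probes or the replicate block (2.38% to 13.4% of all genes tested). It was 3 with median centring (14.5%) and 4 with a variance trend (18.8%). The most abundant, Marco, did not pass (-0.19 ± 0.06, adjusted p = 0.0905). Ttr, Reln, Dcn, Ccr2, Csf1r and Adgre1 were named after their values were seen. The calls of Csf1r, Reln and Dcn ended when any 1 array was left out. The number of hepatocyte markers that fell was 0 with no filter on dim probes or the replicate block (2.13% and 8% of all genes tested). It was 6 with a variance trend (19.4%).

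**Figure D5:**
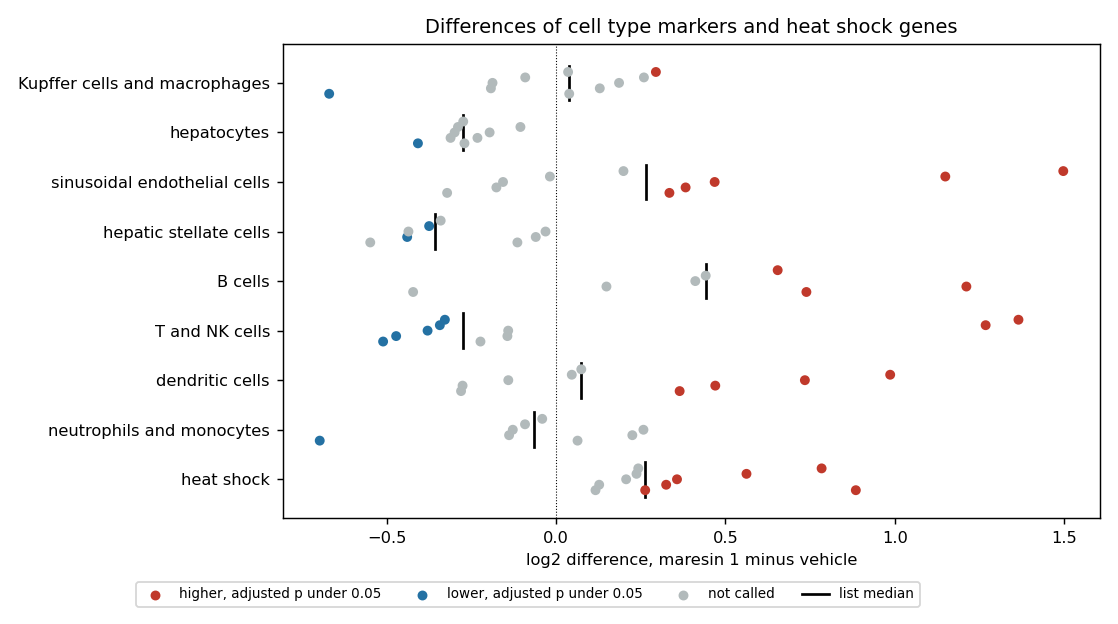
Difference between maresin 1 and vehicle (log2, horizontal axis) for markers of 8 cell types and for heat shock genes, with the list median as a black bar. Red points rose, blue points fell and grey points did not pass. Heat shock genes lie right of 0, hepatocyte and stellate cell markers left of it, and the other lists spread to both sides.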

How the data were processed

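RNA of maresin 1 and vehicle cultures (2 one-colour arrays each) was measured with Cy3. The deposited intensity values are linear. Per the submitters' processing notes they come from Agilent Feature Extraction 11.0.1.1. Background and spatial trend were removed within each array, per the file headers. No between-array normalization is recorded. The deposited value table holds log2 values, of scale and filter not given in the sources used here, with similar column medians, and served as an alternative.

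Log2 processed signals were centred on each array's 75th percentile. Control and outlier-marked spots were left out, and spots of a probe were averaged. Probes well above background on both arrays of a group were kept (31128), named by RefSeq accession (GRCm38.p6, 32994 of 56605 probes), and the brightest stood for its gene. Genes were tested with limma 3.58.1 in R 4.3.3 (lmFit, eBayes, two-sided, Benjamini-Hochberg over 24067 genes, threshold 0.05). The fit was also run on simulated data, with independent normal errors from limma's own variance model and changes in a small share of genes. That run checks the code and cannot show whether the real arrays meet these assumptions. Figures used matplotlib 3.10.9.

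Members and lists were chosen with earlier results of these data known. Named genes were the 10 members, up to 4 genes per related list with the smallest p, 9 fixed genes (Egr3, Nab2, Jdp2, Batf3, Atf4, Ddit3, Srf, Dusp1 and Nr4a1), and the most abundant gene per marker list, apart from those marked as named after their values were seen. Some genes of the lists are not reported here. Of the related lists, Atf7 and Nab1 matched no probe by name, and Nrl and Egr4 were not well above background on any array. The alternatives were quantile normalization, median centring, normexp (offset 50) with quantile normalization, the authors' table, no or a stricter filter, the mean of probes, every probe on its own, a variance trend, a replicate block, and each array left out. With every probe on its own, members and listed genes were represented by their probe with the largest p.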

Additional observations from a re-analysis of the deposited data

How the results depend on the processing

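The test called 2700 genes higher and 3068 lower with maresin 1. Without a filter on dim probes it called 1087 and 972 genes, 4524 and 4672 with a variance trend, 1766 and 1926 with the replicate block, and 882 to 1207 and 668 to 1162 with 1 array left out. Centring on the median gave 3499 higher and 2367 lower genes, so the split of the calls depends on the scaling. Of the 10 members, 6 were higher, and 7 with median centring, the stricter filter or a variance trend. The count was 3 with no filter on dim probes (Fosl2, Atf3 and Egr2) and 2 to 3 with 1 array left out. No member was lower by limma, except 1 (Jund) with normexp and quantile normalization. The replicate numbers do not pair the arrays by any label, and deviations of same-numbered arrays had a correlation of -0.03 across genes. With the replicate block 6 members were called higher, Fosb (adjusted p = 0.0374) among them and Jun (0.0593) not. Among the named genes, directions turned only for differences that had not passed. With quantile normalization Jund was -0.16, Ddit3 -0.067 and Dusp1 -0.020. With normexp and quantile normalization Jund was -0.21, Ddit3 -0.059, Dusp1 -0.047 and Bst2 -0.027. In the authors' table Jund was -0.11, Ddit3 -0.053 and Dusp1 -0.00049. Jund was -0.014 at its other probe, and Ly6c2 was 0.016 with median centring. With 1 array left out, Jund ranged from -0.038 to 0.072, Egr3 from -0.381 to 0.025, Ddit3 from -0.0029 to 0.045 and Ly6c2 from -0.102 to 0.020. The cause of these shifts was not tested. With an array left out, its group rests on 1 array assumed to vary like the other group. Fosb and the second Fosl2 probe had the lowest signals among the kept probes of the 10 genes, which limits their precision.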
